A study of Mus musculus with 12 samples.

Results

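Week 4 of culture was compared with week 3 in mouse bone marrow cells that overexpressed Hoxa9, on all 12 arrays of the series: the 6 arrays whose sample names carry week 4 and the 6 that carry week 3. Bone marrow came from 12-week-old female C57B/6 mice that had received 5-FU (5-fluorouracil, which kills cycling cells), and the cells grew in DMEM with fetal calf serum and the cytokines IL3, SCF and IL6. All groups carried Hoxa9 from a retroviral MSCV vector, controls included, together with a second vector. In HOXA9+MIY cells the second vector was empty, in HOXA9+MEIS1 cells it carried Meis1, and in HOXA9+MDHD cells it carried Meis1 with its homeodomain deleted. Each of these 3 conditions had 2 arrays at week 3 and 2 at week 4. The samples of a condition are called independent experiments in the labels, which leave unsaid whether a week 4 array shares its culture with a week 3 array, so the p-values measure the spread between these arrays. No uncultured cells and no untransduced cells were among the arrays, and the labels name no batch of extraction, labelling or scanning. A batch that held all arrays of 1 week could not be told apart from the week.

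Hoxa9 and Meis1 are homeobox transcription factors that keep myeloid progenitors dividing in culture and are active together in acute myeloid leukaemia. Cells that divide need the genes of DNA replication, mitosis and ribosome assembly, many of which are targets of the factors E2f and Myc. Cells short of oxygen stabilise the factor Hif1a, which binds a short DNA element and turns on genes of glucose uptake, glycolysis, oxygen sensing and mitochondrial turnover.

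The arrays measured RNA with exon-level probe sets, and a gene's value here is a log2 value summarised over its probe sets, so that a difference of 1 is a 2-fold change. Of the marker genes checked, the leukocyte gene Ptprc lay between 10.66 and 11.08 on the 12 arrays, the progenitor genes Kit and Cd34 between 9.80 and 10.60 and between 9.51 and 11.57, and the primary granule gene Mpo between 10.36 and 12.97. The T cell gene Cd3e (7.44 to 7.64) and the fibroblast gene Col1a1 (7.83 to 8.03) varied little. The endothelial gene Pecam1, which blood progenitors and myeloid cells also express, lay between 11.26 and 11.88. Hoxa9 lay between 13.17 and 13.46 on every array and had no call between the weeks (-0.10 ± 0.04 log2, adjusted p = 0.063), although it was called lower in 3 of 24 other settings. The arrays of the weeks also differed as a whole. The SD of the gene values (log2) was 1.468 to 1.503 on the week 3 arrays and 1.387 to 1.450 on the week 4 arrays, with no overlap. The HOXA9+MDHD arrays numbered 2 stood apart most often among the genes followed, and the larger shifts of list counts without them are given beside those counts.

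**Figure D1:**
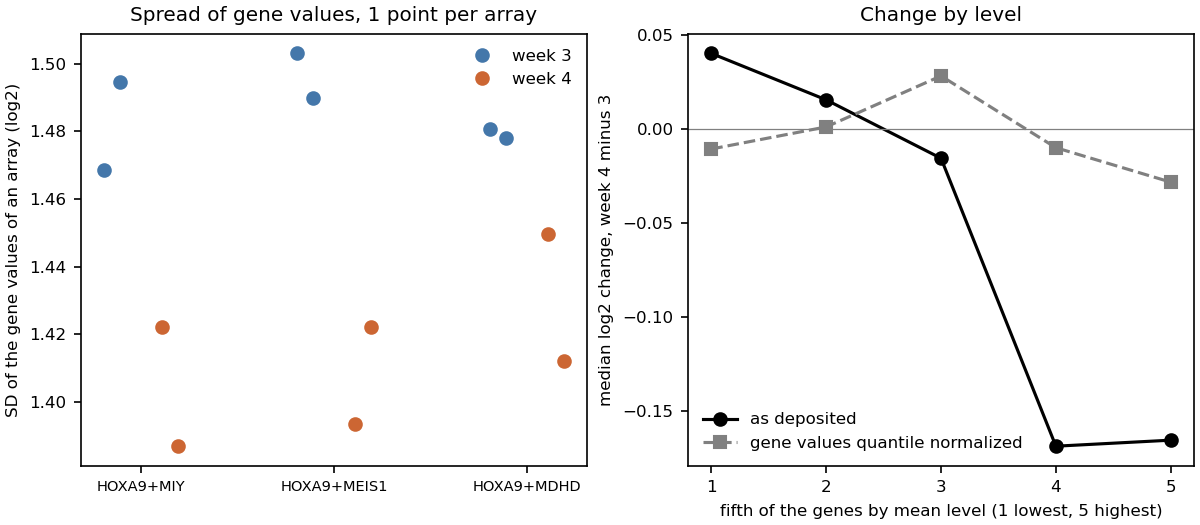
Left, the SD of all gene values (log2) on each array, with conditions along the x axis and weeks in colour; all 6 week 4 arrays lie below all 6 week 3 arrays. Right, the median log2 change, week 4 minus week 3, in 5 equal groups of genes ordered by mean level; it falls from 0.04 in the lowest group to -0.17 in the highest in the deposited values and stays between -0.03 and 0.03 after quantile normalization of the gene values.

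Changes are given as the log2 difference between the weeks with its standard error (6 arrays per week), and a gene is called changed where its p, adjusted over all genes by Benjamini and Hochberg's method, is under 0.05. With condition as a term in limma's moderated test, 8233 of 20711 genes (39.8%) were called. In the deposited values 2421 of them (11.7% of all genes) were higher at week 4 and 5812 (28.1%) were lower. Most of these changes were small: 75 genes (0.362%) were called and at least 2-fold higher, and 58 (0.28%) called and at least 2-fold lower. In 1554 genes (7.5%) both week 4 arrays lay above both week 3 arrays in each of the 3 conditions, and in 4738 (22.9%) below. The direction split moved with the scaling. The calls were 3813 higher and 4419 lower after quantile normalization of the gene values, 4279 and 4053 after cyclic loess, and 7940 and 3728 when each array was centred on the median of its probe sets. Centring moved the median change of all genes from -0.02 to 0.13. Falls were called in 53.9% of the fifth of genes with the highest levels and in 3.19% of the fifth with the lowest. The part that the narrower spread of the week 4 arrays has in this split was not tested. Counts of gene lists are therefore followed below by those under the quantile and the centred scaling. Each is to be read beside the calls over all 20711 genes, of which 3813 and 7940 were higher under these scalings.

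The conditions share no arrays and can be set beside each other. Of the 8233 called genes, 8152 had the same sign in all 3 conditions. The test that called them favours such genes. Over all 20711 genes the sign was shared in 12683 (61.2%). Over all genes the within-condition changes correlated with r = 0.76 between HOXA9+MIY and HOXA9+MEIS1, 0.75 between HOXA9+MIY and HOXA9+MDHD, and 0.76 between HOXA9+MEIS1 and HOXA9+MDHD (a description across genes, which are not independent replicates). Within HOXA9+MIY, 764 genes (3.69%) were called higher and 3517 (17%) lower. Within HOXA9+MEIS1, 1235 (5.96%) were called higher and 4599 (22.2%) lower. Within HOXA9+MDHD, 1131 (5.46%) were called higher and 2844 (13.7%) lower. Rises made up 17.8%, 21.2% and 28.5% of these calls in HOXA9+MIY, HOXA9+MEIS1 and HOXA9+MDHD cells, and 54.2%, 59.8% and 49.2% when arrays were centred. These counts borrow the spread of all 12 arrays, and they rest on few arrays. HOXA9+MDHD gave 45 called genes when its 4 arrays were fitted alone, 32 of them higher. Fits of their own 4 arrays gave 5564 called genes in HOXA9+MIY and 6544 in HOXA9+MEIS1 cells. Leaving out 1 array lowered the counts of called genes to as few as 1503 in HOXA9+MIY (without its week 3 array numbered 2), 3807 in HOXA9+MEIS1 (without its week 4 array numbered 1) and 2198 in HOXA9+MDHD cells (without its week 3 array numbered 2). A total of 2741 genes were called in the same direction in all 3 conditions and 1 in opposite directions.

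**Figure D2:**
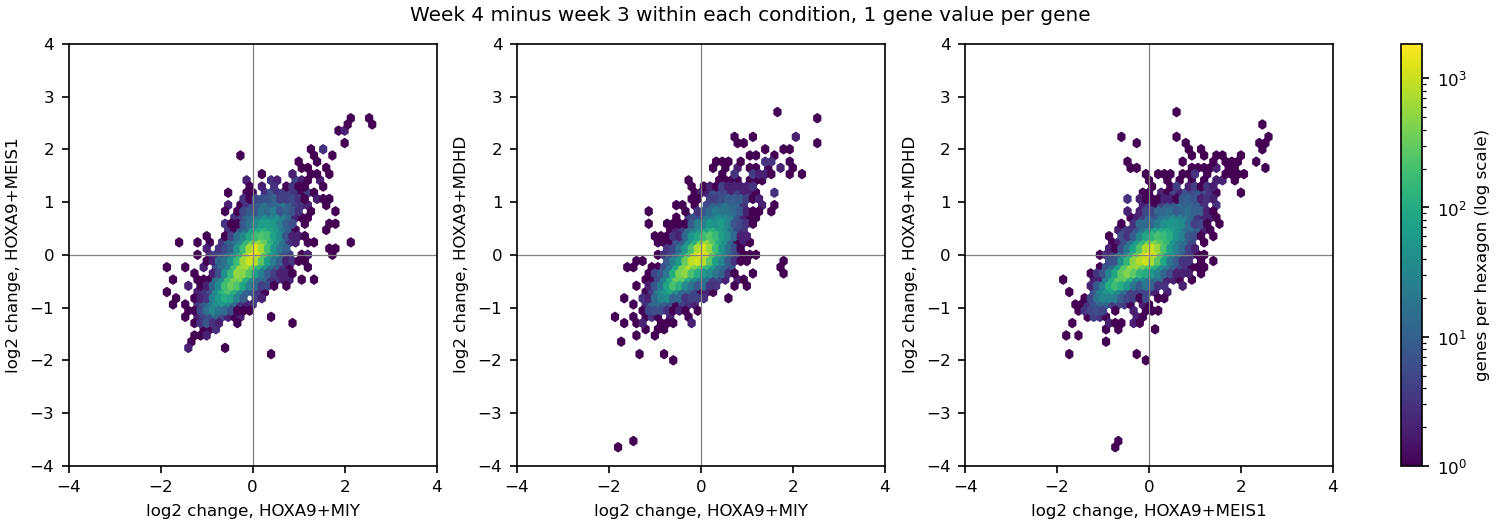
Log2 change of each gene, week 4 minus week 3, in 1 condition (x axis) against another (y axis), with the number of genes per hexagon in colour on a log scale. The clouds run along the diagonal with r = 0.76, 0.75 and 0.76; the 2 points lowest in the panels with HOXA9+MDHD are Fcer1a and Tph1.

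Among genes with a given name, those that rose most in all conditions were Nos2, Ddit4, Fam162a, Ankrd37, Clec2d, Lrrc32, Eno1, Hmox1, Tsc22d3 and Zc3h6. They rose between 3.16-fold and 5.73-fold. Nos2, the inducible nitric oxide synthase, read 7.13 and 7.25 at week 3 and 9.67 and 9.82 at week 4 in HOXA9+MIY cells. It read 6.88 and 6.96, then 9.09 and 9.66, in HOXA9+MEIS1 cells. In HOXA9+MDHD cells it read 6.57 and 7.08, then 8.67 and 10.06. Every week 4 array lay above every week 3 array, and the rise was 2.52 ± 0.19 log2 (5.73-fold, adjusted p = 1.6e-06).

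Ddit4, an inhibitor of the growth kinase mTORC1 that cells make under stress and low oxygen, read 8.08 and 8.00 at week 3 and 10.29 and 9.99 at week 4 in HOXA9+MIY cells. The values were 8.02 and 7.83, then 10.64 and 10.45, in HOXA9+MEIS1 cells. They were 7.96 and 8.44, then 10.50 and 10.28, in HOXA9+MDHD cells. The weeks were far apart in every condition, and the rise was 2.31 ± 0.11 log2 (4.94-fold, adjusted p = 1.4e-07). Hmox1, which breaks down heme, ranged from 8.70 to 9.79 (median 9.18) at week 3 and from 10.62 to 11.29 (median 11.00) at week 4, 3.35-fold higher. Tsc22d3, a glucocorticoid-induced leucine zipper protein, ranged from 7.44 to 7.86 (median 7.76) and then from 9.12 to 9.56 (median 9.38), 3.16-fold higher. Fam162a, a mitochondrial protein induced by low oxygen, rose 4.60-fold, from a median of 9.26 to one of 11.45. Clec2d, a ligand of a natural killer cell receptor, rose 4.19-fold, and Lrrc32, which holds latent TGF-beta at the cell surface, rose 3.97-fold. The weeks did not overlap over all 12 arrays for any of these genes.

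**Figure D3:**
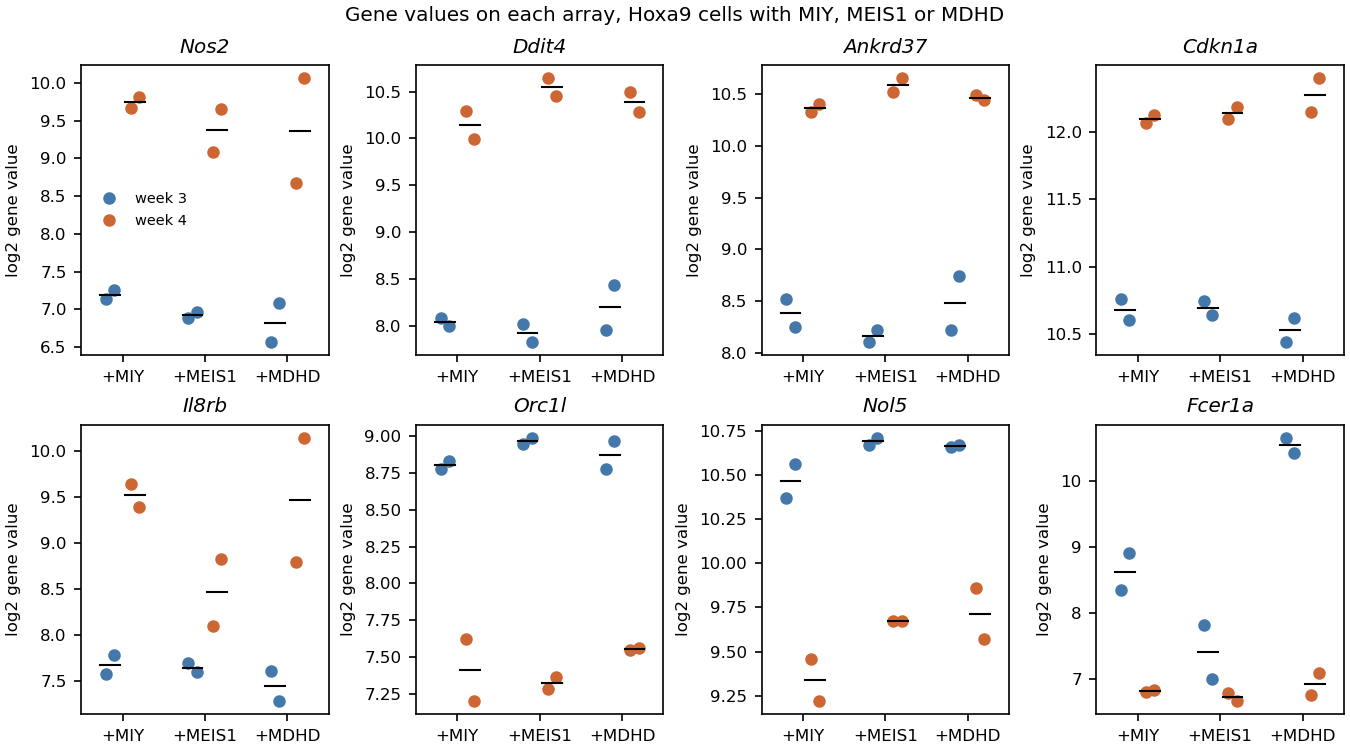
Log2 values of 8 genes on each array (points; 2 arrays per condition and week), with conditions along the x axis, weeks in colour and black bars at the mean of 2 arrays; each y axis has its own range. The weeks separate in every panel for Nos2, Ddit4, Ankrd37, Cdkn1a, Il8rb, Orc1l and Nol5; Fcer1a falls from 10.66 and 10.43 in HOXA9+MDHD cells and from 7.82 and 7.00 in HOXA9+MEIS1 cells.

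Genes of the hypoxia response and glycolysis had the largest share of rises among the 37 lists read. Of 36 measured, 28 rose and 0 fell, with a median change of 0.58 against -0.02 for all genes, and 27 had the weeks apart in all 3 conditions. The count was 32 risen and 0 fallen under the quantile scaling and 34 and 0 under the centred one. It was 27 without both HOXA9+MDHD arrays numbered 2. Within conditions 22, 25 and 28 members were called higher in HOXA9+MIY, HOXA9+MEIS1 and HOXA9+MDHD cells, and 1, 1 and 0 lower. List members named beyond the 4 of each list with the largest change were picked after their values were seen.

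Among the sensors and signals of the list, Egln3 and Egln1, which hydroxylate Hif1a, rose 1.84-fold and 1.39-fold. Egln3 ranged from 11.73 to 12.12 (median 11.86) at week 3 and from 12.70 to 12.85 (median 12.76) at week 4. Ankrd37, an ankyrin-repeat protein known as a target of Hif1a, ranged from 8.11 to 8.74 (median 8.24) and then from 10.33 to 10.65 (median 10.46), 4.38-fold higher. Ndrg1, a stress-induced protein, rose 3.13-fold, and the secreted factors Vegfa and Adm rose 1.64-fold and at least 2.06-fold, the week 3 mean of Adm lying below the value at which dim probe sets were dropped.

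Among the glucose transporters, Slc2a3 rose 2.50-fold and Slc2a1 rose 1.59-fold. Slc2a3 ranged from 11.20 to 12.04 (median 11.86) at week 3 and from 12.97 to 13.15 (median 13.08) at week 4, with no overlap. Of the glycolytic enzymes, Eno1 rose 3.46-fold, Aldoc 1.83-fold and hexokinase Hk2 1.64-fold. Eno1 has near-identical copies in the mouse genome that its probe sets may not separate. Pdk1, which keeps pyruvate out of the mitochondrion, rose 1.62-fold, and Bnip3, which marks mitochondria for removal, rose 1.94-fold. Not all of the pathway moved. Ldha changed by 0.01 ± 0.02 log2 (13.63 to 13.71 at week 3, 13.64 to 13.70 at week 4), Gapdh by 0.09 ± 0.05 and Tpi1 by -0.07 ± 0.03 log2, all without a call. Gpi1 and Pgk1 rose by 0.25 each.

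**Figure D4:**
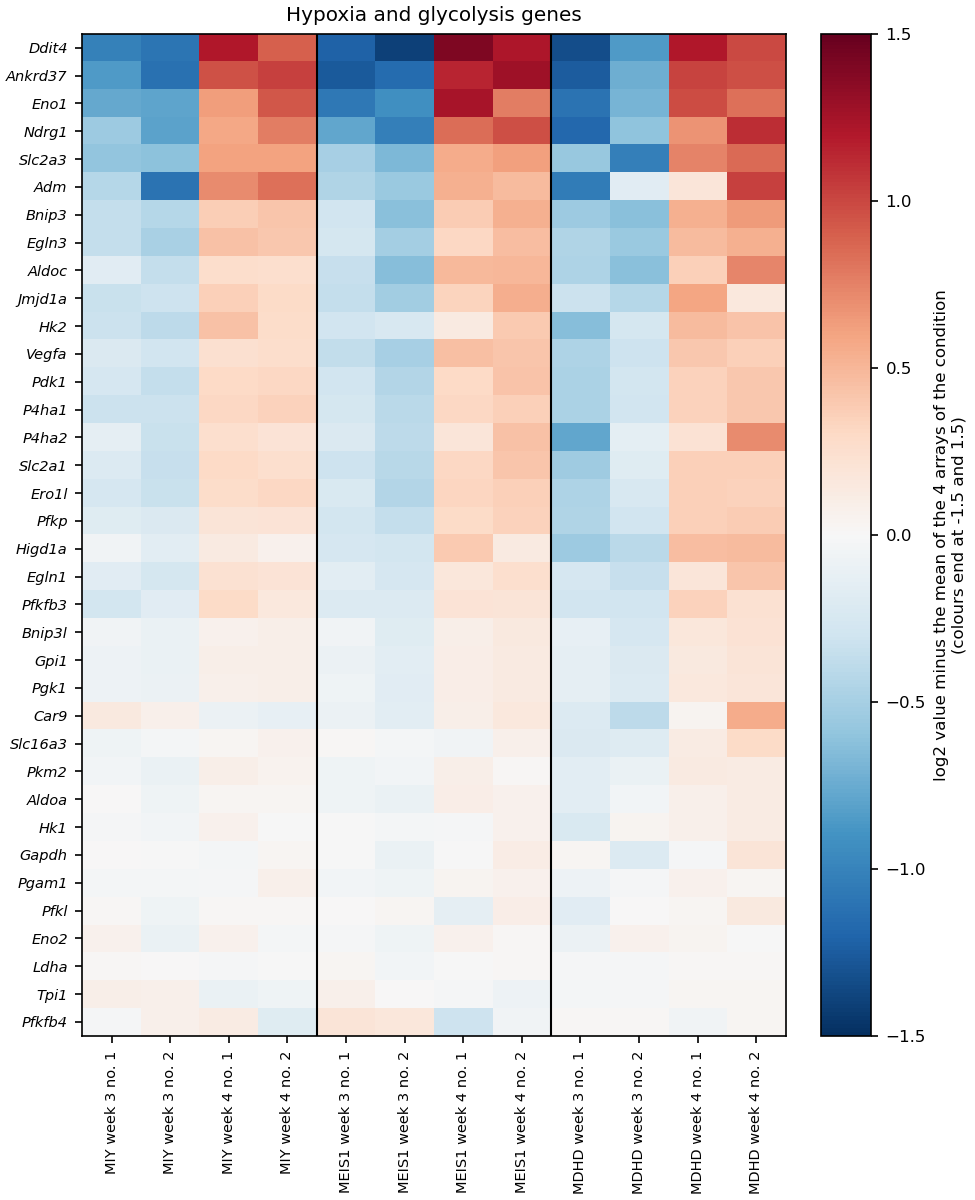
Log2 values of the 36 hypoxia and glycolysis genes on the 12 arrays after subtraction of the mean of the 4 arrays of each condition, with genes ordered by their change; blue is below and red above that mean, and colours end at -1.5 and 1.5. The week 3 columns are blue and the week 4 columns red down to about Pgk1 (0.25 log2), and the genes below it show little colour.

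The 250 bases before the start of the 3 members of this list with the largest rise are shown because Hif1a binds the core motif ACGTG or its variant with a first base G. The sequences are from RefSeq on build GRCm38.p6, 5′ to 3′ on the strand of the gene, with matches in capitals on either strand and overlapping matches run together. The first motif reads CACGT on the opposite strand. The variant is spelled GCGTG, and its opposite strand reads CACGC. Ddit4 is at chr10:59951771-59952020 on the minus strand, Ankrd37 at chr8:45999851-46000100 on the minus strand and Eno1 at chr4:150236458-150236707 on the plus strand.
Ddit4: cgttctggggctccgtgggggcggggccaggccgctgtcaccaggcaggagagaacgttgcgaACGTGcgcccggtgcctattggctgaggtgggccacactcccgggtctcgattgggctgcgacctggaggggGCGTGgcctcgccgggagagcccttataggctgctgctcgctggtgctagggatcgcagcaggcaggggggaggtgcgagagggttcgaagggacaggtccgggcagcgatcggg
Ankrd37: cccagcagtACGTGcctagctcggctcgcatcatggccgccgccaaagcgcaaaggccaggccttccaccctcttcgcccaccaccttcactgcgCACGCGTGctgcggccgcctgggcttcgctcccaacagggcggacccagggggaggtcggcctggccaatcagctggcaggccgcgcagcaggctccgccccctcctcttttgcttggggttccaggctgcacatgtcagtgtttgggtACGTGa
Eno1: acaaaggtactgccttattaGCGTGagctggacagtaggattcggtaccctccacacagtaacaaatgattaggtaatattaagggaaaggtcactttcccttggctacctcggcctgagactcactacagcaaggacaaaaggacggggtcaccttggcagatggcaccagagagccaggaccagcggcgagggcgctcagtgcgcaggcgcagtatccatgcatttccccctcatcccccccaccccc
Ddit4 held 2 such stretches, Ankrd37 held 3 and Eno1 held 1. The sequences shown were drawn from risen members with a match, so each had to hold at least 1. Of the 33 list members with a sequence in the table, 26 (78.8%) held the core at least once, as did 21 (84.0%) of the 25 that rose. The share over all 27025 genes with a sequence was 38.6%. That set also holds genes without a value on these arrays, and the share over the measured genes alone was not taken. The core contains CG, and the windows also differed in base composition: the median GC content was 66.4% for the risen members and 52.0% for all genes. A match describes the letters of the window and does not show that a factor binds there.

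Among genes with a given name, the largest falls were those of Fcer1a, Tph1, Cd27, Orc1l, Bex6, Tspan6, Siah1b, Srd5a1, Gemin6 and Tceal8. They fell between 2.31-fold and 4.13-fold. Fcer1a, the IgE-binding chain of the mast cell receptor, fell 4.13-fold and Tph1, the serotonin-synthesis enzyme of mast cells, fell 3.61-fold over the conditions. Their falls were unequal among conditions and are given with the mast cell genes below. Cd27, a receptor of the TNF receptor family on lymphocytes and progenitors, read 9.28 and 9.12 at week 3 and 7.93 and 7.76 at week 4 in HOXA9+MIY cells. It read 9.71 and 10.04, then 7.77 and 8.48, in HOXA9+MEIS1 cells, and 9.33 and 9.53, then 7.54 and 7.42, in HOXA9+MDHD cells. No week 4 array reached the lowest week 3 array, and the fall was 3.21-fold (-1.68 ± 0.13 log2, adjusted p = 1.5e-06).

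Siah1b, a ubiquitin ligase, ranged from 8.14 to 8.51 (median 8.28) at week 3 and from 6.76 to 7.22 (median 7.04) at week 4, 2.43-fold lower. Srd5a1, a steroid 5-alpha reductase, fell 2.40-fold, and Gemin6, a part of the SMN complex that assembles splicing particles, fell 2.31-fold. Bex6 fell 2.70-fold and Tceal8 fell 2.31-fold. Tspan6, a tetraspanin, fell 2.58-fold with overlapping weeks: its HOXA9+MDHD arrays at week 4 read 8.80 and 6.83 after 9.35 and 9.35 at week 3.

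DNA replication genes fell almost without exception. Of 30 measured, 29 fell and 0 rose, with a median of -0.64 log2; the exception, Rrm2, was measured by 1 probe set and changed by -0.19 ± 0.16. The count was 27 under both the quantile and the centred scaling and 29 without both HOXA9+MDHD arrays numbered 2. Within HOXA9+MIY, HOXA9+MEIS1 and HOXA9+MDHD cells 25, 29 and 24 were called lower. The HOXA9+MDHD count was 18 without its week 3 array numbered 2, 20 without its week 4 array numbered 2 and 12 without both.

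Origin licensing was represented by Orc1l (now Orc1), the largest subunit of the origin recognition complex. It read 8.78 and 8.83 at week 3 and 7.62 and 7.20 at week 4 in HOXA9+MIY cells. In HOXA9+MEIS1 cells it read 8.95 and 8.99, then 7.28 and 7.36. In HOXA9+MDHD cells it read 8.78 and 8.97, then 7.55 and 7.56. The weeks were apart everywhere, with a fall of 1.45 on the log2 scale (2.74-fold lower, adjusted p = 3.2e-07). The 6 subunits of the replicative helicase fell less, from -0.20 for Mcm6 to -0.64 for Mcm2 and Mcm4. Fen1, the nuclease that trims Okazaki fragments, fell 2.10-fold, Tyms, which makes thymidylate, 1.95-fold, and Chaf1b, a histone chaperone of the replication fork, 1.91-fold. Of 17 replication-dependent histone genes, 7 fell and 0 rose, but 6 fell and 2 rose under the quantile scaling and 4 and 4 under the centred one. Hist1h1b fell most, 2.01-fold, with week 4 values of 7.72 and 7.70 in HOXA9+MEIS1 cells against 8.89 and 8.69 in HOXA9+MIY cells.

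Mitosis genes fell as often and by less. Of 30, 29 fell and 0 rose with a median of -0.33 log2, and the counts were 22 and 20 fallen under the quantile and the centred scaling. Kif20a, a kinesin of the midzone, fell 1.66-fold, Cenpe, a kinetochore motor, 1.53-fold, and Birc5 (survivin) by 0.54 on the log2 scale. The proliferation marker Mki67 ranged from 12.13 to 12.24 (median 12.20) at week 3 and from 11.81 to 12.11 (median 11.99) at week 4, 1.17-fold lower.

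Among 20 cyclins, CDKs and CDK inhibitors, 7 rose and 6 fell (8 and 6 under the quantile scaling, 10 and 6 under the centred one). The fallen share (30%) was near that of all genes (28.1%), and the risen share was 35% against 11.7%. The risen members included the inhibitors Cdkn1a, Cdkn1b and Cdkn2d and the retinoblastoma gene Rb1 (0.57 log2), and the fallen ones included both E cyclins. Cdkn1a (p21) read 10.76 and 10.60, then 12.07 and 12.13, in HOXA9+MIY cells. The values were 10.74 and 10.64, then 12.10 and 12.19, in HOXA9+MEIS1 cells, and 10.44 and 10.62, then 12.15 and 12.40, in HOXA9+MDHD cells. The replicates lay close together and the rise was 1.54 ± 0.07 log2 (2.90-fold, adjusted p = 9.8e-08). Cdkn1b (p27) rose 2.21-fold, from a median of 9.96 to one of 11.16. Ccng2, a cyclin made when cells leave the cycle, also rose 2.21-fold. Ccne1 (cyclin E1), which drives entry into S phase, fell 2.20-fold, from a median of 9.41 to one of 8.28, and Cdk6 and Cdk4 fell 1.42-fold and 1.27-fold. Ccnd2 fell by 0.38 and Ccnd3 rose by 0.21 on the log2 scale.

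Of 20 genes of the p53 response, 12 rose and 2 fell (13 and 2 under the quantile scaling, 15 and 1 under the centred one). Trp53inp1 rose 2.72-fold, Btg2, an antiproliferative factor, 2.46-fold, and Sesn2, a stress-induced inhibitor of mTORC1, 1.78-fold. The direct p53 targets Mdm2 and Bbc3 rose by 0.21 log2 each, and Plk3 fell 1.83-fold. Among 22 apoptosis regulators 6 rose, led by the proapoptotic Bcl2l11 (Bim, 0.55 log2) and Bmf (0.54) and the antiapoptotic Mcl1 (0.41), and 6 fell, led by Bak1 (-0.48). The fallen share (27.3%) was near that of all genes (28.1%), and the counts were 9 risen and 2 fallen under the quantile scaling and 10 and 2 under the centred one.

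**Figure D5:**
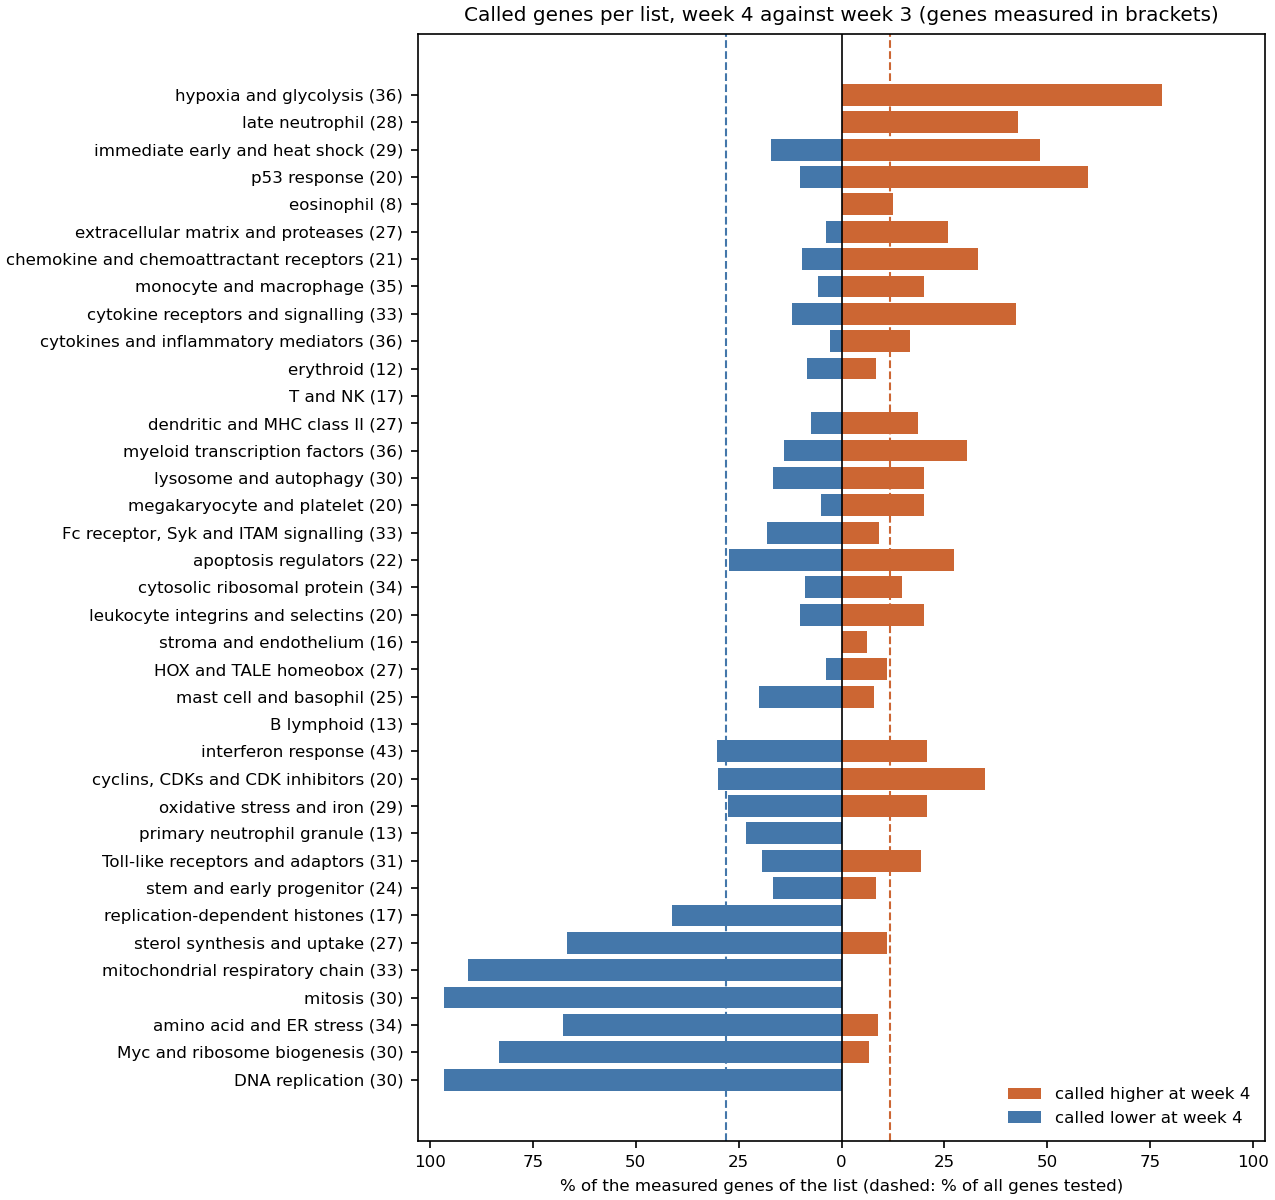
Share of the measured genes of each list called higher (right, orange) or lower (left, blue) at week 4 over all conditions, with lists ordered by median log2 change, the number of measured genes in brackets and dashed lines at the shares over all genes (11.7% higher, 28.1% lower). Hypoxia and glycolysis genes reach 77.8% higher, and DNA replication and mitosis genes 96.7% lower.

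Genes of ribosome assembly and of Myc fell broadly. Of 30 measured, 25 fell and 2 rose, with a median of -0.52 log2 (25 and 3 under the quantile scaling, 24 and 3 under the centred one). Nol5 (now Nop58), a core protein of the particles that modify ribosomal RNA, read 10.37 and 10.56, then 9.46 and 9.22, in HOXA9+MIY cells. It read 10.67 and 10.71, then 9.67 and 9.67, in HOXA9+MEIS1 cells, and 10.66 and 10.67, then 9.86 and 9.57, in HOXA9+MDHD cells. It fell 2.05-fold, with all week 4 arrays below all week 3 arrays. Nme1, a nucleoside diphosphate kinase, fell 2.04-fold, Ppan, an assembly factor of the large subunit, 2.00-fold, and the nucleolar GTPase Gnl3 1.96-fold. Myc itself fell 1.31-fold, from 11.89 to 12.24 (median 12.04) down to 11.51 to 11.82 (median 11.68). The 2 risen members were Rrp1b (0.37 log2) and Mxd1, a repressor that competes with Myc for its partner Max. Mxd1 rose 3.04-fold, from 9.63 to 10.31 (median 10.09) up to 11.53 to 11.78 (median 11.65).

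Few ribosomal protein genes were called. Of 34, 5 rose and 3 fell, with a median of 0.03 log2, and the count turned to 24 risen and 2 fallen under the centred scaling and 15 and 3 under the quantile one. The fallen ones were Rps6 (1.69-fold lower), Rpl10a (1.60-fold lower) and Rpl26, whose call was lost under the centred scaling and with a stricter filter on dim probe sets. Ribosomal protein genes have many near-identical copies that probe sets may not separate.

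Genes of the mitochondrial respiratory chain fell in 30 of 33 cases and rose in 0, with a median of -0.33 log2 (25 fallen and 1 risen under the quantile scaling, 22 and 1 under the centred one). Complex I was represented by Ndufa4 (1.69-fold lower; now often assigned to complex IV) and Ndufa9 (1.65-fold lower), complex II by Sdhb (1.58-fold lower), and the ATP synthase by Atp5o (1.64-fold lower). Ndufa9 ranged from 9.89 to 10.11 (median 10.01) at week 3 and from 9.18 to 9.41 (median 9.28) at week 4, without overlap. Ndufs3, Cox5b and Ndufa1 were the members without a call.

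Of 34 genes of the amino acid and ER stress responses, 23 fell and 3 rose (22 and 5 under the quantile scaling, 22 and 6 under the centred one). The serine and folate enzymes Mthfd2 and Shmt2 fell 2.00-fold and 1.80-fold, the ER chaperone-associated Creld2 fell 1.82-fold, and Atf4, the transcription factor of this response, fell by 0.45 on the log2 scale. The risen members were Sesn2, Vldlr (0.72 log2) and Xbp1 (0.12). Of 27 genes of sterol and fatty acid synthesis and uptake, 18 fell and 3 rose, but 13 fell and 3 rose under the quantile scaling and 11 and 4 under the centred one. Fasn (fatty acid synthase) fell 1.70-fold, Scd1 (stearoyl-CoA desaturase) 1.71-fold and Cyp51, a sterol demethylase, 1.58-fold. The transferrin receptor Tfrc fell 1.53-fold, from a median of 11.14 to one of 10.50.

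A list of 29 immediate early and heat shock genes held 14 that rose, all of them immediate early or growth arrest genes, and 5 that fell (14 and 5 under the quantile scaling, 15 and 4 under the centred one). Gadd45b rose 2.59-fold, Atf3 2.27-fold, Egr1 by 1.01 and Jun by 0.91 log2. The chaperone genes Hsph1 (2.23-fold lower), Hsp90aa1 (-0.56 log2), Dnajb1 (-0.36) and Hspa8 (-0.29) made up 4 of the 5 falls, with Fosb (-0.32). In HOXA9+MIY cells the list gave 6 higher and 7 lower calls, and in HOXA9+MDHD cells 14 and 3.

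Among 33 cytokine receptors and their signalling genes, 14 rose and 4 fell (16 and 4 under the quantile scaling, 17 and 4 under the centred one). Without both HOXA9+MDHD arrays numbered 2, 14 rose and 9 fell. Il10ra, a receptor chain for IL10, rose 2.71-fold, from 9.04 to 9.61 (median 9.44) up to 10.56 to 11.20 (median 10.82). For the cytokines in the medium, the IL3 receptor chains Il3ra and Csf2rb rose 1.20-fold and 1.10-fold, the SCF receptor Kit changed by -0.19 ± 0.13 log2 without a call, and Il6st, the signalling chain of the IL6 receptor, fell 1.60-fold. Pim2 and Cish, which are targets of the factor Stat5, rose by 0.84 and 0.37 log2. Of 31 genes of Toll-like receptor signalling, 6 rose, led by Ticam2 (1.89-fold) and Tnfaip3 (1.83-fold), and 6 fell, led by Cd180 (2.05-fold lower). Under the quantile scaling 10 rose and 3 fell, and under the centred one 13 and 3. The deposited shares of this list were 19.4% each way, against 11.7% risen and 28.1% fallen of all genes. The interferon response list was split, with 9 of 43 higher and 13 lower: Irf1 rose 1.76-fold and the GTPase Ifi47 fell 1.93-fold. It held 11 higher and 9 lower under the quantile scaling and 14 and 7 under the centred one, so its lean turned with the scaling. The lower share of this list (30.2%) was near that of all genes (28.1%), and the higher share was 20.9% against 11.7%.

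The remaining lists of surface and secreted proteins gave fewer calls. Of 21 chemokine and chemoattractant receptors 7 rose and 2 fell (8 and 2 under the quantile scaling, 12 and 1 under the centred one), led by the chemerin receptor Ccrl2 (1.40 log2) and by P2ry14 (-0.69), a receptor for nucleotide sugars. Of 36 cytokines and inflammatory mediators 6 rose and 1 fell (7 and 1, then 11 and 1, under these scalings; 10 and 2 without both HOXA9+MDHD arrays numbered 2). The prostaglandin synthase Ptgs2 rose by 0.72 and the IL1 antagonist Il1rn by 0.71, and the chemokine Ccl3 fell by 0.84 log2. Of 27 genes of extracellular matrix and proteases 7 rose and 1 fell (8 and 0, then 13 and 0; 7 and 3 without the HOXA9+MDHD week 4 array numbered 2), led by the metalloprotease Adam8 (1.31 log2) and the protease inhibitor Timp3 (1.03). The integrin and selectin list held 4 risen and 2 fallen of 20 (7 and 2, then 10 and 2; 7 and 3 without both HOXA9+MDHD arrays numbered 2). The integrin shares were 20% risen and 10% fallen, against 11.7% and 28.1% of all genes. The Fc receptor and Syk list (3 risen and 6 fallen of 33) turned to 13 and 2 under the quantile scaling and 16 and 2 under the centred one. It held 6 and 6 without the HOXA9+MDHD week 3 array numbered 2, and 7 and 7 without both arrays numbered 2. Its deposited shares, 9.09% risen and 18.2% fallen, were both below those of all genes (11.7% and 28.1%). The lysosome list (6 and 5 of 30) turned to 13 and 2 and to 16 and 2 under these scalings, and held 7 and 8 without both arrays numbered 2. Its deposited shares were 20% risen and 16.7% fallen. In the list of 29 oxidative stress and iron genes, Nos2 and Hmox1 were among 6 that rose, while Txnrd1 (thioredoxin reductase, -0.61 log2) and Prdx1 (a peroxiredoxin, -0.46) were among 8 that fell, with 8 and 5 under the quantile scaling and 11 and 4 under the centred one. The shares of this list were 20.7% risen and 27.6% fallen, against 11.7% and 28.1% of all genes.

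Of 36 myeloid transcription factors, 11 rose and 5 fell (15 and 3 under the quantile scaling, 21 and 3 under the centred one). Bhlhe41 and Bhlhe40, paired repressors, rose 2.73-fold and 1.86-fold, Id2 rose by 0.81 and Irf8 by 0.45 log2, and Ikzf1 fell by 0.42. The granulocyte factors Cebpa, Cebpe and Gfi1 and the progenitor factor Myb had no call (-0.02, 0.18, -0.06 and -0.04 log2). Of 27 HOX and TALE genes 3 rose and 1 fell (5 and 1 under the quantile scaling, 10 and 1 under the centred one): Tgif1 (0.31 log2), Hoxb4 (0.25) and Hoxb8 (0.17) rose and Pknox1 (-0.55) fell. The risen share of this list (11.1%) was near that of all genes (11.7%), and the fallen share (3.7%) was below it (28.1%). Meis1 changed by -0.06 ± 0.09 log2 without a call and turned positive under other scalings.

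Marker lists of blood cell types were read for all 12 arrays; in these bulk samples fewer cells of a type and less RNA per cell cannot be told apart. Late neutrophil genes rose in 12 of 28 cases and fell in 0 over the conditions (14 and 0 under the quantile scaling, 17 and 0 under the centred one). The calls were 7 higher and 0 lower in HOXA9+MIY cells, 0 and 2 in HOXA9+MEIS1 cells, and 16 and 0 in HOXA9+MDHD cells. The HOXA9+MDHD count rested on single arrays, with 6 higher without its week 3 array numbered 2 and 4 without its week 4 array numbered 2. Without that week 4 array 9 rose and 4 fell over the conditions. The summed level of the list changed by 0.89 log2 in HOXA9+MDHD, 0.40 in HOXA9+MIY and 0.06 in HOXA9+MEIS1 cells, and ranged from 14.10 to 15.57 on the week 3 arrays and from 14.32 to 15.96 on the week 4 arrays, which overlap.

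Il8rb (now Cxcr2), the chemokine receptor of mature neutrophils, read 7.57 and 7.78, then 9.65 and 9.39, in HOXA9+MIY cells. The values were 7.69 and 7.60, then 8.10 and 8.83, in HOXA9+MEIS1 cells, and 7.61 and 7.28, then 8.79 and 10.15, in HOXA9+MDHD cells. All week 4 arrays were above all week 3 arrays, and the rise was 1.56 ± 0.25 log2 (2.95-fold, adjusted p = 0.00025). Ly6g, the granulocyte surface antigen, rose 2.50-fold, with a low week 3 array in HOXA9+MDHD cells (9.43 and 7.76, then 10.63 and 10.99); its change was 1.00 log2 without that array, against 1.32 with it. The abundant calprotectin genes S100a8 and S100a9 changed by 0.51 ± 0.36 and 0.89 ± 0.37 log2 without a call. Of 13 primary granule genes 3 fell and 0 rose, but 1 fell and 1 rose under the quantile scaling, and 1 fell and 3 rose under the centred one. The fallen share (23.1%) was below that of all genes (28.1%). The falls were 6 without the HOXA9+MDHD week 3 array numbered 2, 7 without its week 4 array numbered 2 and 8 without both. Ms4a3, a gene of committed granulocyte progenitors, fell 1.57-fold, from 13.03 to 13.25 down to 12.19 to 12.69, and Mpo had no call (-0.07 log2). The falls of Ctsg (-0.11 log2) and Serpinb1a (-0.12) turned positive when arrays were centred.

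Among 35 monocyte and macrophage genes 7 rose and 2 fell, and the count moved to 13 and 0 under the quantile scaling and 16 and 1 under the centred one. It was 14 and 5 without both HOXA9+MDHD arrays numbered 2. In the deposited values 20% of the list rose and 5.71% fell, against 11.7% and 28.1% of all genes. Arg1 rose 3.11-fold over the conditions from very different levels (9.86 and 9.78, then 11.35 and 11.56, in HOXA9+MIY cells; 7.08 and 6.90, then 7.52 and 7.65, in HOXA9+MEIS1 cells; 7.97 and 7.88, then 9.77 and 11.43, in HOXA9+MDHD cells). Fn1 (fibronectin) rose 2.33-fold (1.22 log2, and 0.86 without the HOXA9+MDHD week 4 array numbered 2), and the complement gene C1qb by 0.57 log2. Of the 2 fallen genes, Gpr84 went from a median of 10.18 to one of 9.44, and its call was lost in 3 of 24 other settings. Among 27 dendritic and MHC class II genes 5 rose and 2 fell, led by H2-Ob, which rose 2.14-fold in 1 probe set. The count was 6 and 1 under the quantile scaling, 12 and 0 under the centred one, and 8 and 2 without the HOXA9+MDHD week 3 array numbered 2. In the deposited values 18.5% of this list rose and 7.41% fell. Among 24 stem and early progenitor genes 2 rose and 4 fell, and the lean turned to 4 and 3 under the quantile scaling and 6 and 2 under the centred one. It was 4 and 5 without the HOXA9+MDHD week 4 array numbered 2, and 5 and 5 without both arrays numbered 2. The shares of this list, 8.33% risen and 16.7% fallen, were below those of all genes (11.7% and 28.1%). Among its members Cd48 fell 1.58-fold, Ctla2a rose from a median of 8.56 to one of 9.18, and Kit, Flt3 and Cd34 had no call. The fallen members Angpt1 and Ly6a lost their call in 15 and 1 of 24 other settings. Megakaryocyte genes gave 4 higher and 1 lower calls of 20 (5 and 0 under the quantile scaling, 11 and 0 under the centred one), with 6 higher without the HOXA9+MDHD week 3 array numbered 2. They were led by the platelet chemokines Ppbp (1.49 log2, and 1.21 without the HOXA9+MDHD week 4 array numbered 2) and Pf4 (0.75). The deposited shares of the megakaryocyte list were 20% risen and 5% fallen. In the eosinophil, erythroid and stroma lists 1 gene each rose, Il5ra, Car1 and Lepr (0.37, 0.36 and 0.47 log2), and the call of Car1 was lost in 14 of 23 other settings. Within HOXA9+MIY cells 3 of 8 eosinophil genes were called higher, against 3.69% of all genes, and the summed level of that list rose by 1.10 log2 there, against 0.02 in HOXA9+MEIS1 and 0.04 in HOXA9+MDHD cells. In the deposited values no gene of the B lymphoid (13) or T and NK (17) lists was called. Under the centred scaling 4 and 12 were called higher, with 8 of the 16 stroma genes and 7940 of all 20711 genes.

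Mast cell and basophil genes split by gene. Of 25, 5 fell and 2 rose over the conditions (5 and 3 under the quantile scaling, 5 and 7 under the centred one): Fcer1a, Ms4a2 (the receptor's beta chain, 1.98-fold lower), the tryptase Tpsb2 (1.89-fold lower), the chymase Cma1 (1.65-fold lower) and Ptgds2 (-0.54 log2) fell, and Mitf (0.26) and Il13 (0.20) rose. The shares were 20% fallen and 8% risen, against 28.1% and 11.7% of all genes. Fcer1a read 8.34 and 8.91 at week 3 and 6.79 and 6.82 at week 4 in HOXA9+MIY cells, 7.82 and 7.00, then 6.78 and 6.66, in HOXA9+MEIS1 cells, and 10.66 and 10.43, then 6.75 and 7.08, in HOXA9+MDHD cells. The week 3 levels differed widely between conditions and the week 4 levels lay together near the filter level of 6.26. Tph1 followed the same course, with 10.08 and 9.71, then 6.51 and 6.25, in HOXA9+MDHD cells. Other genes of the lineage, the proteases Cpa3 (-0.49 log2) and Mcpt8 (0.04) and the factor Gata2 (0.33), had no call. The summed level of the list changed by -0.66 log2 in HOXA9+MDHD cells, -0.13 in HOXA9+MIY and 0.09 in HOXA9+MEIS1 cells.

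Whether the week change differed between conditions was tested for every gene. The F test called 0 of 20711 genes (0%), with a smallest adjusted p of 0.14, while 1324 genes (6.39%) had an unadjusted p under 0.05. The pairwise differences also gave 0 calls. The 5 genes with the smallest p were Fcer1a, Tph1, Tpsb2, Retnlg and Nfil3. The fall of Fcer1a was -3.63 log2 in HOXA9+MDHD, -1.81 in HOXA9+MIY and -0.69 in HOXA9+MEIS1 cells, and that of Tph1 was -3.52, -1.43 and -0.60; the HOXA9+MEIS1 changes of both had no call. Tpsb2 fell by 2.00 in HOXA9+MDHD, 0.66 in HOXA9+MIY and 0.10 in HOXA9+MEIS1 cells, the last without a call. Retnlg, a granule gene of neutrophils, changed by 1.23 in HOXA9+MIY, 1.07 in HOXA9+MDHD and -0.23 in HOXA9+MEIS1 cells, the last without a call. Nfil3, a leucine zipper factor, rose everywhere with replicates close together, by 1.02 in HOXA9+MIY (9.37 and 9.37, then 10.37 and 10.41), 1.72 in HOXA9+MEIS1 and 1.68 in HOXA9+MDHD cells. Fcer1a and Tph1 passed the F test when dim probe sets were kept, and these 2 with Tpsb2 when gene values were plain means. Without the HOXA9+MDHD week 4 array numbered 1 the F test called 29 genes.

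Within single conditions, the largest called rises repeated the shared ones, with a few of their own. In HOXA9+MIY cells the arginine transporter Slc7a2 rose by 2.19 log2 (6.83 and 6.72, then 9.18 and 8.75), and in HOXA9+MDHD cells it also rose (6.01 and 6.39, then 7.38 and 8.03), against 0.27 log2 without a call in HOXA9+MEIS1 cells. The falls there included Ms4a6c (-1.86), Ms4a6b (-1.72) and the endothelin receptor Ednrb (-1.61), of which Ednrb had no call in the other conditions. In HOXA9+MEIS1 cells the water channel Aqp8 fell by 1.84 log2 (10.64 and 10.39, then 8.31 and 9.02), while it lay between 6.08 and 7.00 on the arrays of the other conditions. In HOXA9+MDHD cells Arg1 rose by 2.68, Ly6g by 2.22 and Stfa2 by 2.17 log2, and the germ cell helicase Ddx4 fell by 1.88 (9.93 and 9.27, then 8.90 and 6.55). These differences between conditions did not pass the F test on all 12 arrays. Arg1, Ms4a6b, Ms4a6c, Slc7a2 and Ddx4 passed it without the HOXA9+MDHD week 4 array numbered 1, and Ly6g without the week 3 array numbered 1. Each of these fits leaves the HOXA9+MDHD array numbered 2 as the only one of its week. After subtraction of the condition mean, the week 4 array stood apart for Arg1 (2.17, the others 0.23 to 0.92) and Ddx4 (-2.11). The week 3 array stood apart for Ly6g (-1.95). No single array stood apart for Ms4a6b, Ms4a6c or Slc7a2. For Arg1, Ddx4 and Ly6g the result of the F test rests on 1 deviating array. In addition, the call of Ddx4 over the conditions was lost in 13 of 24 other settings.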

How the data were processed

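RNA of 12 samples was measured on Affymetrix exon arrays. The authors deposited log2 values per probe set made with RMA in Affymetrix Expression Console, per the submitters' processing notes, with versions not given in the sources used here. Of 1256831 probe sets, 318760 name 1 gene symbol; 20744 read 0 on all arrays. The 233798 named ones with a mean above 6.26, the median of all probe sets, were summarised by median polish to 20711 genes (2245 by 1 probe set), with no further scaling. RMA assumes that arrays share 1 distribution, and summarising can alter the spread. Tests were limma 3.58.1 fits (R 4.3.3) with trend and Benjamini-Hochberg adjustment: week plus condition, and week within each condition. The fits were tested on simulated data. The members and gene lists were chosen with earlier results of these data known. Named genes are the 10 largest called changes each way with the same sign in every condition, the 4 largest called per list, the 5 largest each way within a condition and the 5 smallest interaction p; others were picked after their values were seen. Deviations of same-numbered arrays of a condition correlated weakly between the weeks (0.135 for HOXA9+MDHD, -0.067 for HOXA9+MIY and -0.018 for HOXA9+MEIS1). With 2 arrays per group this cannot exclude shared cultures, and the main fits used no replicate block. Alternatives covered filters, summaries, scalings, models and left-out arrays. The number of arrays limits the precision. Promoter windows came from RefSeq on GRCm38.p6.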

Additional observations from a re-analysis of the deposited data

Results flagged for a closer look

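For 144 genes, the 6 arrays of each week were screened for a single array far from the others after the mean of each condition was subtracted. An array stood apart in 23 of 288 groups. The cutoff gives about 1 in 20 for 6 independent values of 1 distribution. Values with a shared condition mean subtracted are not such values, so the count cannot be set against that rate. The HOXA9+MDHD week 3 array numbered 2 accounted for 8 of them. It was low for the granulocyte antigen Ly6g (-1.95, the others -0.67 to -0.09), for Fn1 (-1.46), Trp53inp1 (-1.43), the platelet chemokine Pf4 (-0.77), Meis1 (-0.24), the factor Fli1 (-0.04, the others 0.12 to 0.21) and Rps6 (0.10, the others 0.38 to 0.50), and high for Clec2d (-0.29, the others -1.36 to -1.02). The HOXA9+MDHD week 4 array numbered 2 accounted for 6: it was high for Arg1 (2.17, the others 0.23 to 0.92), Fn1 (2.06), Ppbp (1.85), Serpinb2 (1.41) and Cdkn1a (1.00, the others 0.68 to 0.78), and low for Ddx4 (-2.11, the others -0.41 to 0.24).

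The HOXA9+MDHD week 3 array numbered 1 was low for Atp5o (0.12), Fads2 (0.21), Shmt2 (0.27) and Il6st (-0.05), and the week 4 array numbered 1 was high for Shmt2 (-0.20, the others -0.53 to -0.42). The HOXA9+MIY week 3 array numbered 2 was high for Siah1b (0.86) and Nol5 (0.66). In HOXA9+MEIS1 cells the week 4 array numbered 1 was low for Gemin6 (-0.93, the others -0.63 to -0.45) and the week 3 array numbered 2 was high for Ifi47 (0.75).

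The change of Retnlg had opposite signs between conditions: it rose by 1.23 log2 in HOXA9+MIY and 1.07 in HOXA9+MDHD cells, and its change in HOXA9+MEIS1 cells was -0.23 with no call (adjusted p = 0.25, limma), although the weeks were apart in each. The F test of this difference gave an adjusted p of 0.14 (limma), which misses the threshold.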

How the results depend on the processing

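The count over all conditions lay between 7546 and 8482 when each array was left out in turn, against 8233, and at 1322 with a further minimum of 1.5-fold. Left-out arrays moved the HOXA9+MIY count between 1503 and 4819 (2580, 1503 and 1658 without week 3 arrays 1 and 2 and week 4 array 2), the HOXA9+MEIS1 count between 3807 and 6370, and the HOXA9+MDHD count between 2198 and 4138 (2198 and 2524 without week 3 and week 4 arrays 2). HOXA9+MDHD gave 2377 genes with array weights and 45 from its own 4 arrays. The own arrays of HOXA9+MIY and HOXA9+MEIS1 gave 5564 and 6544. The F test called 2 genes with no filter on dim probe sets, 3 with plain means, and between 0 and 29 when an array was left out (7 without HOXA9+MDHD week 3 array 1). The causes were not tested.

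With the replicate number as a block in each condition, 7998 genes were called, 7696 of them among the 8233; the block within conditions gave 3630, 5481 and 3277. Whether the numbers pair the arrays is not known, and the block moved no count by over 1.5 times.

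Of 144 genes followed over 24 settings, 128 were called with the same sign in every one. Meis1 turned to 0.0086 with plain means, 0.088 with centring, 0.071 with cyclic loess and 0.036 with quantile scaling of gene values. Rpl26 turned to 0.018 with a stricter filter. Centring turned Ctsg to 0.046, Serpinb1a to 0.029 and Hoxa9 to 0.058, and loess turned Serpinb1a to 0.0049. Quantile scaling of gene values and the list counts without HOXA9+MDHD arrays were chosen after seeing the data. The number of arrays and signals near background limit the precision.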
